A study of Canis lupus with 24 samples.

Results

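The comparison described here set spheres against adherent cells of the same line, both with vehicle only. The cells were K9TCC, a line established from a transitional cell carcinoma of the dog bladder. Adherent cells grew attached to plastic in DMEM-F-12 with fetal bovine serum. Spheres had been kept for at least 5 passages on ultralow attachment plates, in serum-free William's E medium with putrescine, selenite, transferrin, insulin, basic FGF and EGF. Both forms received DMSO, the solvent of mavacoxib, for 24 h, which is the 0 µM arm of the drug treatment. The 6 arrays of this comparison, 3 of each form, were all those with these labels among the 24 Affymetrix Canine Gene 1.1 ST arrays of the study. The others carried the same 2 culture forms after 50 µM mavacoxib for 24 h or 48 h after transfection with an siRNA, labelled either COX-2 or negative control. In the labels' account of the siRNA work, spheres as well as adherent cells were plated anchorage-dependent a day ahead. Whether the spheres then attached is not stated, so arrays labelled spheres with siRNA may hold attached cells. Spheres and adherent cells differed in attachment, in serum, in basal medium and in added growth factors at once, and these cannot be told apart. A single cell line was studied.

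Spheres are grown from tumour lines to enrich cells that survive and divide without attachment, and they are widely used as a model of cancer stem cells. Normal urothelium has a basal layer, marked by the keratin KRT5 and the transcription factor TP63, and a luminal side of umbrella cells that cover the apical membrane with uroplakin plaques and depend on FOXA1, GATA3, PPARG and ELF3. Bladder carcinomas are commonly sorted into luminal and basal types by these genes, and basal tumours can also switch on the programme of skin epidermis. COX-2, encoded by PTGS2, makes the prostaglandin precursor that PTGES turns into prostaglandin E2, and canine bladder carcinomas are treated with COX inhibitors.

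Values are log2 signals, so that a difference of 1 is a 2-fold change. The 3 adherent arrays had medians of 4.79, 4.72 and 4.71 and the 3 sphere arrays 4.95, 4.95 and 4.88. Adherent arrays correlated with each other at 0.993 to 0.996 and sphere arrays at 0.990 to 0.996, and an adherent with a sphere array at 0.908 to 0.911. Sphere array 3 was the one least like its group, at 0.990 with both others. The values carry no detection calls. Where the dimmer form lay below 4.82, the median of all values, its signal may be background and the difference is then a lower bound. A gene is said to have risen or fallen in spheres where its adjusted p in the limma fit over all 16295 genes was under 0.05, and errors are standard errors of that fit. Separate cultures are not stated for the 3 arrays of a group, and the p-values cover the spread between arrays, which may be technical. Statements that the arrays of a gene lie apart only describe that gene. The share of all genes with such arrays is not given, and GATA3, ABCG2 and ITGB1 had them without passing. In a bulk sample, more cells with a transcript and more of it per cell cannot be told apart.

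Most epithelial markers were over the median of all values in both forms, but so were most named genes. Of 15 epithelial markers measured, 12 had a mean over it in adherent cells and 14 in spheres. Of 14095 genes with a place in the gene order, outside the MDM2 stretch described below, 9414 had a mean of both forms over it. Epithelial list means were 8.96 to 9.05 in the adherent arrays and 9.26 to 9.32 in the sphere arrays. In spheres 4 of the 15 rose and 10 fell, with a median log2 difference of -0.71. The adhesion protein E-cadherin (CDH1) lay at 12.01, 11.86 and 11.82 in the adherent arrays and 11.10, 11.12 and 11.31 in the sphere arrays. Leukocyte markers were over that median in 0 of 11 cases in either form, with list means of 2.82 to 2.90 in the adherent arrays and 2.73 to 2.93 in the sphere arrays. Endothelial and muscle markers were over it in 1 of 12 cases in each form, with list means of 3.45 to 3.51 in the adherent arrays and 3.49 to 3.75 in the sphere arrays. Fibroblast markers were over it in 2 of 12 cases in adherent cells and in 5 in spheres, with list means of 3.86 to 4.07 in the adherent arrays and 4.44 to 4.55 in the sphere arrays. The fibroblast markers that rose were COL3A1 (4.04 to 6.85), THY1 (3.83 to 5.98), COL1A2 (3.58 to 4.37) and COL1A1 (4.18 to 4.95), as means on the log2 scale. Urothelial markers had list means of 9.07 to 9.31 in the adherent arrays and 6.16 to 6.28 in the sphere arrays. Of these 8 markers, 7 were over the median in adherent cells and 5 in spheres. The 2 that were no longer over it in spheres were UPK1A and UPK3A.

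Spheres and adherent cells differed over much of the transcriptome. Of 16295 genes, 7505 passed (46.1%), of which 3714 rose in spheres (22.8% of all genes) and 3791 fell (23.3%), and the median difference over all genes was -0.03. Counts of rises and falls in the lists below are to be read beside these shares. Lists near them, such as laminins, heat shock genes and drug transporters, did not stand out from all genes. A change of at least 2-fold was seen for 2904 genes (17.8%), 1642 higher (10.1%) and 1262 lower (7.74%). In 1309 of these 2904 the dimmer form had a mean below the median of all values, and in 1595 both forms lay above it. Differences ran from -8.10 to 8.42. In 127 genes every sphere array was over 7.79, the upper quartile of all values, while every adherent array was under the median, and 72 genes had the reverse pattern.

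KRT5, a keratin of basal epithelial cells, had the largest rise, with log2 signals of 3.40, 3.50 and 3.97 in the adherent arrays and 12.06, 12.13 and 11.93 in the sphere arrays. All 3 sphere arrays were among the brighter values on the array, and all 3 adherent arrays were under the median of all values. The difference was 8.42 ± 0.19, adjusted p = 1.03e-19. CDH13, a cadherin anchored to the membrane by a lipid, went from a mean of 3.53 to 11.75. STC1, a secreted glycoprotein hormone, went from 3.73 to 11.92. The epidermal keratins KRT10 (7.90 ± 0.28) and KRT1 (7.90 ± 0.24) and the interstitial collagenase MMP1 (7.86 ± 0.24) were also among the 15 largest rises. So were the metalloreductase STEAP2 (8.07), its relative STEAP1 (7.66), the serpin SERPINB10 (7.89), the adhesion protein NECTIN3 (7.66) and the deubiquitinase UCHL1 (7.57). The list of 15 was completed by EDIL3 (7.55), an integrin-binding matrix protein, the mucin-like membrane protein podoplanin (PDPN, 7.48), the fatty acid desaturase FADS1 (7.34) and the matrix proteoglycan biglycan (BGN, 7.33). This list and that of the 15 largest falls took only genes whose arrays did not overlap. Separate arrays of their members therefore follow from that choice.

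DLA-DRA, the alpha chain of the dog's MHC class II molecule DR, had the largest fall, with 11.11, 11.39 and 11.29 in the adherent arrays and 3.32, 2.94 and 3.23 in the sphere arrays. The adherent arrays were near the top of the range and the sphere arrays were dim. Its difference was -8.10 ± 0.20, adjusted p = 4.86e-19. Among the 15 largest falls were also CD74, the class II invariant chain (-7.34 ± 0.20), and DLA-DQA1 (-6.98). The uroplakins UPK3A (-7.50 ± 0.29) and UPK1A (-7.28 ± 0.18) and the TEAD cofactor VGLL1 (-7.55) fell too. ALDH1A1, a retinaldehyde dehydrogenase often used as a stem cell marker, fell from a mean of 11.15 to 3.22. The copper-dependent ferroxidases CP (-7.20) and HEPH (-6.89) fell together, and so did the sialyltransferase ST8SIA6 (-8.08), the sphingomyelin synthase SGMS1 (-7.51) and the tryptophan-degrading enzyme IDO1 (-6.44). The remaining 3 were SYT1 (-6.61), EYA1 (-6.56) and GLDN (-6.47), a calcium sensor of vesicle release, a transcriptional phosphatase and a protein of nodes of Ranvier.

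**Figure D1:**
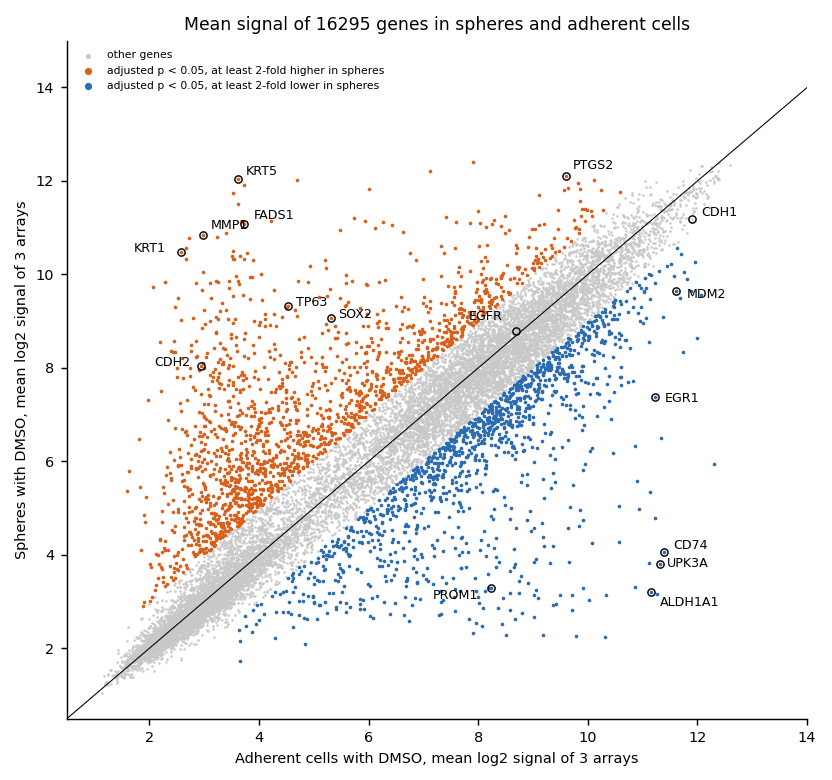
Mean log2 signal of 16295 genes in 3 adherent arrays (x axis) and 3 sphere arrays (y axis) with DMSO. Orange points are the 1642 genes at least 2-fold higher and blue points the 1262 at least 2-fold lower in spheres with adjusted p under 0.05, grey points are all others, and the line marks equal signal. KRT5, KRT1, MMP1 and FADS1 lie far above the line, and UPK3A, CD74 and ALDH1A1 far below it, while EGFR lies on it.

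Luminal urothelial genes were mostly lower in spheres. Among uroplakins and luminal regulators, 3 of 24 measured members rose and 17 fell, with a median log2 difference of -1.18, beside -0.03 over all genes. UPK3A, a component of the apical plaque, had 11.32, 11.29 and 11.33 in the adherent arrays and 3.92, 3.59 and 3.92 in the sphere arrays. No sphere array reached the median of all values, and no adherent array was under 11. UPK1A, the tetraspanin of the same plaque, went from 11.12 to 3.83, and UPK2 from 9.68 to 5.02. The forkhead factor FOXA1, which opens luminal enhancers, fell from a mean of 9.33 to 5.42, and the ETS factor ELF3 from 9.19 to 5.22. PPARG, the nuclear receptor of urothelial differentiation, fell from 9.58 to 7.86, and ERBB3 (-2.78), SNX31 (-3.43) and KRT18 (-2.24) also fell, a receptor of the EGF family, an endosomal sorting nexin and a simple-epithelium keratin.

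Not all of the luminal list moved this way. UPK1B, the other tetraspanin uroplakin, rose (1.56 ± 0.14, adjusted p = 1.92e-09). It had 10.25, 10.26 and 10.20 in the adherent arrays and 11.86, 11.96 and 11.58 in the sphere arrays. TBX3, a T-box repressor, rose from 3.85 to 7.19, and the epoxygenase CYP2J2 from 2.89 to 4.36. GATA3 did not pass, at 9.91, 10.0 and 10.09 in the adherent arrays and 9.57, 9.67 and 9.70 in the sphere arrays (-0.35 ± 0.15, adjusted p = 0.0545). The keratin KRT19 was bright in both forms and did not pass (-0.05 ± 0.10), and KRT20, the umbrella cell keratin, was dim in both, at means of 2.30 and 2.33.

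Basal genes moved the other way. In the list of basal epithelial and hemidesmosome genes, 16 of 23 measured members rose and 1 fell, with a median log2 difference of 0.76. TP63, the master regulator of basal epithelium, had 4.87, 4.02 and 4.72 in the adherent arrays and 9.29, 9.22 and 9.44 in the sphere arrays. The 3 sphere arrays were tightly grouped and lay well above every adherent array, and the difference was 4.78 ± 0.18, adjusted p = 7.91e-16. The keratins KRT17 (6.07 ± 0.23) and KRT6A (5.48 ± 0.26) and the TP63-linked protein TRIM29 (6.41) also rose. The desmosomal cadherin DSC3 went from 9.46 to 11.38, the hemidesmosome collagen COL17A1 from 7.33 to 9.39 and the giant protocadherin FAT2 from 2.85 to 5.87. The laminin chain LAMA3 was the 1 member that fell (8.57 to 7.96). The hemidesmosome components ITGB4 (0.06), ITGA3 (0.01), PLEC (-0.12), CD151 (0.14) and LAMB3 (-0.04) were bright in adherent cells and did not pass. Neither did the EGF receptor (EGFR, 0.10). LAMA3, which fell, and DSC3, which rose, were bright in adherent cells too.

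Genes of skin differentiation and barrier formation had the highest median difference of all lists. Of these, 25 of 41 measured members rose and 6 fell, with a median log2 difference of 1.94. Keratin KRT1, made when keratinocytes leave the basal layer, had 2.05, 2.75 and 2.92 in the adherent arrays and 10.67, 10.43 and 10.31 in the sphere arrays. Its adherent arrays were dim and its sphere arrays were over the upper quartile of all values. The difference was 7.90 ± 0.24, adjusted p = 1.6e-17. KRT10, its partner, had 2.08, 2.69 and 3.24 in the adherent arrays and 10.66, 10.77 and 10.28 in the sphere arrays. The cornified envelope precursor involucrin (IVL) went from 5.30 to 9.69, suprabasin (SBSN) from 3.79 to 10.45 and the serine protease inhibitor SPINK5 from 7.13 to 12.21. The calcium-binding alarmins S100A8 (2.59 to 9.02) and S100A9 (3.56 to 9.05), the lipid transporter ABCA12 (2.85 to 8.57) and the serpin SERPINB2 (2.96 to 9.67) rose as well. The epidermal protease CASP14 rose from 3.86 to 6.96.

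Other genes of the list did not follow. The crosslinking enzyme TGM1 did not pass, with 5.81, 5.68 and 5.67 in the adherent arrays and 5.69, 5.42 and 5.38 in the sphere arrays, and the envelope protein EVPL did not either (0.13 ± 0.12). The 6 members that fell were KRT80 (-3.09), GRHL1 (-2.20), PPL (-1.64), SCEL (-1.40), OVOL1 (-0.54) and RPTN (-0.49). They include periplakin (PPL), sciellin (SCEL) and the transcription factors GRHL1 and OVOL1, while RPTN was dim in both forms.

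**Figure D2:**
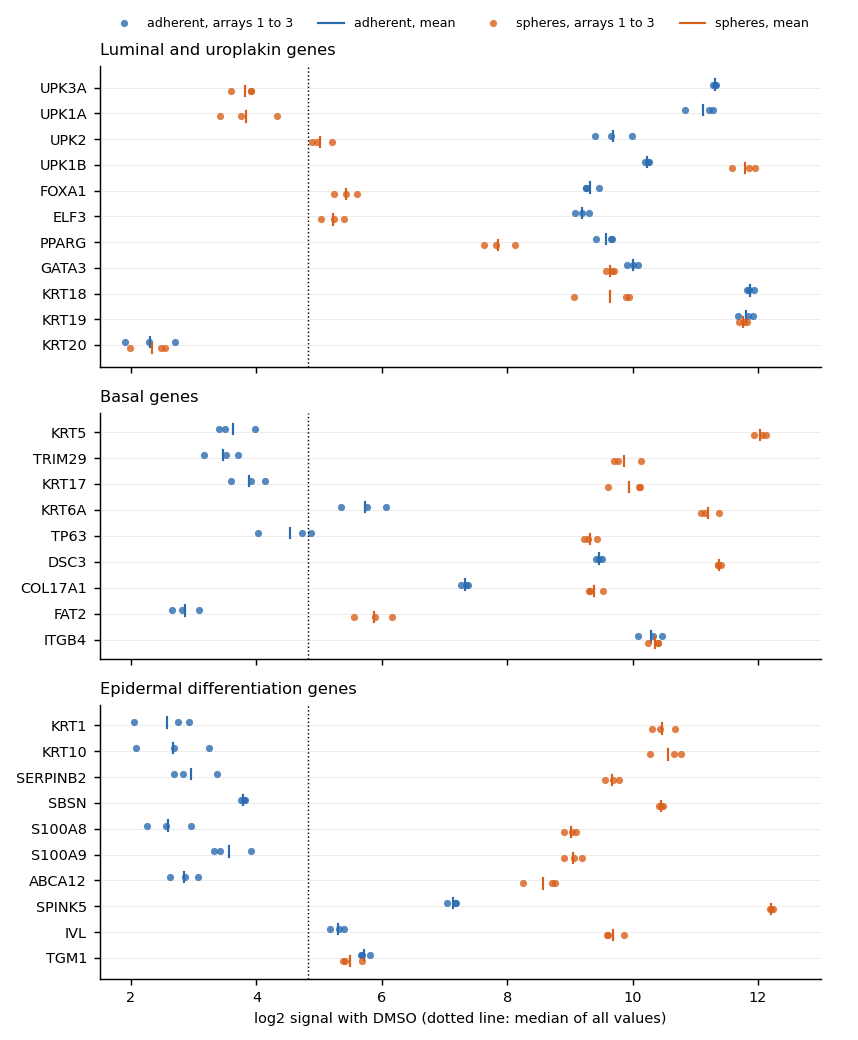
Log2 signal (x axis) of luminal, basal and epidermal differentiation genes in each of the 3 adherent (blue) and 3 sphere (orange) arrays with DMSO, with short vertical bars at the group means and a dotted line at 4.82, the median of all values. UPK3A and UPK1A cross from over 10 to under 5, KRT5 and KRT1 cross the other way, and KRT19, KRT20, ITGB4 and TGM1 lie together in both forms.

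Mesenchymal genes rose beside retained E-cadherin. In the list of cadherin-switch and mesenchymal genes, 16 of 29 measured members rose and 5 fell, with a median log2 difference of 0.88. N-cadherin (CDH2), the cadherin of mesenchymal and neural cells, had 2.87, 2.98 and 3.01 in the adherent arrays and 8.10, 8.24 and 7.77 in the sphere arrays. All sphere arrays were over 7 and all adherent arrays under 4, a difference of 5.08 ± 0.18, adjusted p = 1.2e-16. The TGF-beta-induced matrix protein TGFBI went from 3.29 to 9.21, the metastasis-associated protein S100A4 from 3.59 to 9.98 and the fibronectin receptor subunit ITGA5 from 4.11 to 9.05. The matrix crosslinker LOX (3.26) and the transcription factors PRRX1 (4.41) and SNAI2 (2.82) rose as well, and vimentin (VIM), the mesenchymal intermediate filament, went from 9.85 to 11.82. E-cadherin fell by a small amount (-0.72 ± 0.09, adjusted p = 8.19e-07) and remained among the bright genes. The others that fell were TGFBR1 (-1.55), OVOL2 (-1.43), ITGB6 (-1.18) and ESRP1 (-0.34). The repressor ZEB1, which silences E-cadherin, was dim in both forms (ZEB1, -0.09), and fibronectin did not pass (FN1, 0.17). Some fibroblast markers rose beside these genes, as given above, and their part in the result was not tested.

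Tight junction genes were mixed. Of the claudin, tight junction and adherens junction genes, 11 of 37 measured members rose and 15 fell, with a median log2 difference of -0.26. CLDN4, a sealing claudin of luminal urothelium, had 10.27, 10.44 and 10.63 in the adherent arrays and 5.92, 6.13 and 6.49 in the sphere arrays. CLDN3 fell from 8.26 to 4.77, while CLDN1, the claudin of epidermis, rose from 5.95 to 9.80. Single claudins thus moved in opposite directions. The junction scaffolds CGN (-2.31) and TJP3 (-1.47) and the polarity proteins PARD6B (-1.67) and CRB3 (-1.07) fell, and the adhesion receptor NECTIN1 (1.35) rose.

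No collagen gene fell. In that list, 15 of 30 measured members rose and 0 fell, with a median log2 difference of 0.56, but several of these stayed dim. The highest in spheres were COL12A1, a fibril-associated collagen (7.56 to 9.73), and COL17A1. The basement membrane chains COL4A2 (3.39 to 6.33) and COL4A1 (3.88 to 5.80) and the fibrillar chains COL5A2 (3.64 to 6.99) and COL3A1 also rose. With quantile normalization 2 collagens fell and with array weights 4, and 1 did without adherent array 3 or sphere array 3. Of laminins and other basement membrane genes, 5 of 22 measured members rose (22.7%) and 6 fell (27.3%). These were near the shares among all genes, 22.8% and 23.3%, and the median log2 difference was -0.03. LAMA4, the alpha chain of vessel and mesenchymal laminins, had 2.93, 2.83 and 3.22 in the adherent arrays and 9.28, 9.23 and 9.19 in the sphere arrays, with all sphere arrays far above all adherent arrays. The nidogen NID2 (3.99), the matricellular protein SPARC (3.23), LAMC3 (2.79) and the proteoglycan agrin (AGRN, 0.74) made up the rest of those that rose. The Fraser complex proteins FREM1 (-3.56) and FREM2 (-3.35) and the calcium-binding protein SMOC1 (-3.22) fell. The widely used epithelial chains LAMA5 (-0.04), LAMB1 (-0.17) and LAMB3 (-0.04) did not pass.

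Among integrin and focal adhesion genes, 13 of 36 measured members rose and 8 fell, with a median log2 difference of 0.17. The subunits ITGA5 (4.93) and ITGB8 (3.32) and the actin-binding parvin PARVB (4.18) rose, and ITGA7 (-2.79), the focal adhesion adaptor BCAR1 (-1.77) and the tension-sensing LIM protein ZYX (-1.37) fell. The shared beta chain ITGB1 (0.25) and the kinase PTK2 (0.22) did not pass. Of secreted proteases and their inhibitors, 16 of 31 measured members rose and 5 fell, with a median log2 difference of 0.57. MMP1 had 2.82, 3.44 and 2.70 in the adherent arrays and 10.86, 11.05 and 10.64 in the sphere arrays. The membrane-bound collagenase activator MMP14 went from 5.98 to 9.15, the aggrecanases ADAMTS1 (4.91) and ADAMTS5 (5.08) rose, and so did RECK (3.47), an inhibitor of metalloproteinases. Both plasminogen activators fell, PLAU from 9.84 to 6.99 and PLAT from 8.95 to 4.95. The other 3 that fell were TIMP1 (-1.03), TIMP2 (-0.82) and MMP15 (-0.31). With all arrays shifted to one median, 9 members of this list fell instead of 5, and 8 with array weights.

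The markers used for cancer stem cells did not move together. Of 28 measured, 8 rose (28.6%) and 11 fell (39.3%), beside 22.8% and 23.3% of all genes, with a median of -0.22. ALDH1A1 had 11.22, 11.12 and 11.10 in the adherent arrays and 2.50, 3.27 and 3.88 in the sphere arrays. Every adherent array was bright and every sphere array was under the median of all values. ALDH1A3, another retinaldehyde dehydrogenase, fell from 9.32 to 3.83, CD133 (PROM1) from 8.23 to 3.28 and SALL4, an embryonic zinc finger factor, from 6.84 to 3.08. The drug efflux pump ABCB1 fell from 9.66 to 8.30.

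In the other direction, SOX2, a pluripotency factor also active in squamous tumours, had 5.14, 5.33 and 5.46 in the adherent arrays and 9.03, 8.91 and 9.25 in the sphere arrays (3.75 ± 0.22, adjusted p = 1.1e-12). KLF4, which shares roles in pluripotency and epidermal differentiation, went from 4.42 to 7.27. The hyaluronan receptor CD44 was bright in both forms and rose slightly, with 11.19, 11.10 and 11.12 in the adherent arrays and 11.67, 11.74 and 11.72 in the sphere arrays (0.57 ± 0.08, adjusted p = 3.94e-06). Several classical markers were dim in both and did not pass, among them NANOG (0.02), LIN28A (-0.27), LGR5 (0.09) and ABCG2 (0.50). The polycomb enzyme EZH2 did not pass either (-0.25 ± 0.14).

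Retinoic acid genes included the 2 dehydrogenases. In that list, 6 of 18 measured members rose and 5 fell, with a median log2 difference of -0.02. TGM2, a transglutaminase induced by retinoic acid in many cells, had 11.25, 11.20 and 11.23 in the adherent arrays and 4.80, 4.66 and 4.93 in the sphere arrays. Its arrays were far apart, and the difference was -6.43 ± 0.15, adjusted p = 2.35e-19. The reductase DHRS3 (-1.78) and the retinol dehydrogenase RDH12 (-0.99) fell too. The storage enzyme LRAT (3.71 to 7.73), the retinol carrier RBP4 (3.07 to 7.22), the binding protein CRABP2 (4.42 to 7.75) and the catabolic enzyme CYP26B1 (3.16 to 5.73) rose, as did RARB (1.59) and DHRS9 (0.94). The receptors RARA (-0.12), RARG (-0.38) and RXRA (0.10) did not pass.

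Of the prostaglandin genes, 8 of 22 measured members rose and 5 fell, with a median log2 difference of 0.07. PTGS2, which encodes COX-2, had 9.59, 9.70 and 9.50 in the adherent arrays and 12.13, 12.13 and 12.07 in the sphere arrays. All sphere arrays were over 12 and all adherent arrays under 9.8, a difference of 2.51 ± 0.13, adjusted p = 1.56e-13. The terminal synthase of prostaglandin E2, PTGES, fell from 9.17 to 6.45, and the phospholipase that frees arachidonic acid, PLA2G4A, from 10.68 to 10.07. The EP2 receptor gene PTGER2 had 3.38, 3.19 and 3.55 in the adherent arrays and 8.61, 8.59 and 8.03 in the sphere arrays, with all sphere arrays over 8 and all adherent arrays under 4. The prostaglandin-degrading enzyme HPGD (2.31 to 5.70), the prostacyclin synthase PTGIS (5.97 to 7.86), the receptor PTGDR (1.44) and the constitutive enzyme COX-1 (PTGS1, 1.28) rose as well. The other 3 that fell were PTGES3 (-0.51), PTGR1 (-0.32) and PTGER1 (-0.57). Leaving out dim genes left 5 members that rose, and only 2 fell without sphere array 3 and 3 without adherent array 2 or 3.

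The direction of the PTGS2 difference was not the same in every treatment. Its means in adherent cells were 9.60 with DMSO, 9.48 with mavacoxib and 10.99 with negative siRNA. In spheres they were 12.11, 12.06 and 10.31. After negative siRNA, adherent cells were therefore the higher form, by -0.68 ± 0.13 as spheres minus adherent, and the difference between the culture differences was 3.19 ± 0.18, adjusted p = 5.14e-11. With the labelled COX-2 siRNA the means were 11.32 and 11.47, neither of them under those with negative siRNA.

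Nearly all antigen presentation genes fell. Of MHC class I and II genes, 1 of 17 measured members rose and 15 fell, with a median log2 difference of -2.42. CD74 had 11.25, 11.47 and 11.46 in the adherent arrays and 4.07, 3.78 and 4.32 in the sphere arrays. The class II peptide-loading chains DLA-DMB (10.93 to 4.98) and DLA-DMA (9.64 to 6.45), the immunoproteasome subunit PSMB9 (8.34 to 5.38), the peptide trimming enzyme ERAP1 (8.27 to 5.37) and the peptide transporter TAP1 (8.93 to 6.98) fell. The only member that rose was the class I activator NLRC5, which was dim in both forms (3.36 to 3.93), and beta-2-microglobulin did not pass (B2M, -0.21). Leukocyte markers were under the median of all values in both forms, where signals may be background. The cell source of the class II signal was not tested.

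Interferon-stimulated genes split, and 11 of 29 measured members rose and 9 fell, with a median log2 difference of 0.13. IRF1, an interferon-gamma response factor, had 8.96, 8.86 and 8.85 in the adherent arrays and 4.94, 5.03 and 4.25 in the sphere arrays, and its target chemokine CXCL10 fell from 7.78 to 4.25. The adherent arrays with DMSO were higher in all cases for both, and both also fell with negative siRNA (-2.59 and -3.88). Under mavacoxib IRF1 did not pass (0.09 ± 0.18), and CXCL10 was higher in spheres (0.64 ± 0.19, adjusted p = 0.00785). Neither passed with the labelled COX-2 siRNA (0.20 and 0.02). The RNA sensors and antiviral genes DHX58 (-2.31), EIF2AK2 (-1.40), HERC6 (-2.09) and IFI35 (-2.28) fell, whereas IFI6 (5.58 to 9.33) and viperin (RSAD2, 5.98 to 9.15) rose. Among cytokine, chemokine and NF-kB genes, 17 of 44 measured members rose and 14 fell, with a median log2 difference of 0.04. The monocyte chemokine CCL2 had 3.64, 3.44 and 3.39 in the adherent arrays and 8.77, 8.85 and 8.53 in the sphere arrays, and the related CCL7 (3.24) and CCL5 (2.51) rose. CXCL14, a chemokine of normal epithelium, went from 3.10 to 9.81 and IL18, an epithelial cytokine, from 2.35 to 6.90. The cytokine LIF (-1.94) and the chemokine CXCL16 (-1.33) fell. IL6 and IL1B were dim in both forms (IL6 (0.18) and IL1B (-0.38)).

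Of complement, antimicrobial and bacterial sensing genes, 13 of 28 measured members rose and 5 fell, with a median log2 difference of 0.29. Complement C3 fell from 7.71 to 4.07, while the early complement proteases C1R (1.82) and C1S (1.55) and the complement regulator CD59 (2.44) rose. The lipopolysaccharide co-receptor CD14 went from 5.78 to 8.56, lysozyme (LYZ) from 5.62 to 9.41 and the protease inhibitor SLPI from 4.41 to 6.44. The other members that fell were DMBT1 (-2.09), CD55 (-0.54), TLR4 (-0.68) and TLR2 (-0.47). Without dim genes, 8 members rose and 3 fell.

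Sphere medium contained EGF and basic FGF, and their part in the values below was not tested. Of genes of the EGF receptor family and its feedback, 7 of 17 measured members rose and 5 fell, with a median log2 difference of 0.10. The ligands epigen (EPGN, 4.27 to 9.66), amphiregulin (AREG, 4.82 to 8.12) and epiregulin (EREG, 9.12 to 11.05) rose, and so did LRIG1 (2.83 to 7.52), a receptor inhibitor that also marks epidermal stem cells. The receptors ERBB3 (-2.78), ERBB2 (-1.10) and ERBB4 (-0.90) and the feedback proteins LRIG3 (-1.30) and ERRFI1 (-0.55) fell. EPGN had 3.73, 4.64 and 4.43 in the adherent arrays and 9.67, 9.86 and 9.46 in the sphere arrays.

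Outputs of FGF receptors and ERK had no common direction, with 11 rises and 11 falls among 29 members (median 0.07). EGR1, an immediate early gene, had 10.87, 11.37 and 11.46 in the adherent arrays and 7.37, 6.97 and 7.80 in the sphere arrays (-3.85 ± 0.17, adjusted p = 1.57e-14). Sphere arrays were lower in every case. The phosphatase DUSP5 fell from 10.04 to 7.44 and the ETS factor ETV4 from 8.95 to 7.17, while the feedback inhibitors SPRY2 (6.23 to 8.63) and SPRY1 (8.06 to 10.0) and the ligand FGF1 (3.51 to 6.84) rose. In the list of serum response factor and actin targets, 9 of 30 measured members rose and 8 fell, with a median log2 difference of 0.04. FOS, another gene of the early response, went from 10.73 to 7.71 and FOSL1 from 8.75 to 7.36. The cytoskeletal genes TGFB1I1 (3.34), CNN2 (3.19) and MYL9 (1.83) rose, FHL1 (-2.58) fell, and ACTB (-0.22) and SRF (-0.15) did not pass. YAP and TEAD targets were evenly divided, with 10 rises and 10 falls among 24. ANKRD1 (6.99 to 3.57), the kinase LATS2 (10.56 to 8.63), AMOTL2 and CCN1 fell, and the nucleotidase NT5E (2.84), FJX1 (1.71) and the receptor kinase AXL (0.88) rose.

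Insulin was a component of sphere medium as well, and its part was not tested either. Of insulin and IGF pathway genes, 15 of 25 measured members rose and 2 fell, with a median log2 difference of 0.51. SESN3, a stress-inducible protein that FOXO factors are known to switch on, had 3.52, 3.11 and 3.94 in the adherent arrays and 10.47, 10.72 and 10.33 in the sphere arrays. All sphere arrays were bright and all adherent arrays dim. The insulin receptor INSR went from 3.67 to 6.74, the alpha-arrestins TXNIP (1.18) and ARRDC3 (1.01) and the IGF-binding proteins IGFBP4 (2.13), IGFBP5 (2.33) and IGFBP7 (0.78) rose, and PIK3IP1 (-2.16) and IGF1R (-0.76) fell. In the TGF-beta and BMP list, 16 of 32 measured members rose and 6 fell, with a median log2 difference of 0.46. The activin chain INHBA (3.85 to 9.48) and the activin antagonist FST (3.75 to 8.76) rose together, as did the co-receptor TGFBR3 (2.47 to 8.33), the ligands BMP7 (2.83), BMP2 (2.07) and TGFB1 (1.80) and the BMP target ID1 (2.12). The receptor TGFBR1 (-1.55), the mediator SMAD3 (-0.95) and the TGF-beta target PMEPA1 (-1.41) fell.

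Among Notch, Wnt and Hedgehog genes, 16 of 37 measured members rose and 7 fell, with a median log2 difference of 0.21. Indian hedgehog (IHH), a secreted Hedgehog ligand, had 8.44, 8.69 and 8.85 in the adherent arrays and 3.90, 3.78 and 3.57 in the sphere arrays. It was the largest fall of the list, and the Wnt receptor ligase RNF43 fell from 8.04 to 5.51. The ligands WNT7A (3.92 to 6.96), WNT5A (6.04 to 7.67) and DLL1 (5.02 to 7.35), the Wnt target AXIN2 (1.24), the Hedgehog target GLI1 (1.50) and the secreted protein DKK3 (3.48) rose. With array weights, 12 members fell.

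Fatty acid genes were led by the desaturases. Of that list, 17 of 28 measured members rose and 5 fell, with a median log2 difference of 0.54. FADS1, the delta-5 desaturase of polyunsaturated fatty acids, had 3.73, 4.0 and 3.48 in the adherent arrays and 11.09, 11.16 and 10.98 in the sphere arrays. Its arrays were far apart, a difference of 7.34 ± 0.15, adjusted p = 1.88e-20, and FADS2, the delta-6 desaturase, had 7.64, 7.50 and 7.66 in the adherent arrays and 11.05, 11.26 and 11.06 in the sphere arrays. The lipid chaperone FABP4 (4.01 to 8.91) and the triglyceride enzyme DGAT2 (4.05 to 6.94) rose, and the stearoyl desaturase SCD5 (-1.73) and DGAT1 (-0.74), ACSL3 (-0.70), AGPAT2 (-0.65) and ELOVL1 (-0.33) fell. SCD, the main stearoyl desaturase, was bright in both forms (SCD, 0.25). Of cholesterol synthesis genes, 8 of 17 measured members rose and 2 fell, with a median log2 difference of 0.22. At least 2-fold changes were 1 rise and 1 fall. FDFT1, the squalene synthase, went from 9.19 to 11.09, and CYP51A1 (0.93), DHCR7 (0.76) and SC5D (0.85) rose, while TM7SF2 (-1.82) and SQLE (-0.53) fell and INSIG1, the sterol sensor, did not pass (0.0 ± 0.13). Liver X receptor targets were few, and 4 of 13 measured members rose and 3 fell, with a median log2 difference of 0.0, with the sterol exporter ABCG1 at 3.34 to 6.47 and its relative ABCA1 at 7.79 to 7.0.

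Genes of the hypoxia response were mostly higher in spheres. In that list, 17 of 25 measured members rose and 2 fell, with a median log2 difference of 0.79. VEGFA, the vascular growth factor, had 8.56, 8.46 and 8.67 in the adherent arrays and 10.88, 11.20 and 10.78 in the sphere arrays. The mitophagy protein BNIP3 (7.04 to 9.33), the carbonic anhydrase CA12 (2.97 to 6.54), the lipase inhibitor ANGPTL4 (6.06 to 8.55) and the collagen hydroxylase P4HA1 (7.52 to 9.42) rose. The 2 members that fell were the glucose transporter SLC2A3 (-3.22) and the demethylase KDM3A (-0.53). Of glycolysis genes, 12 of 20 measured members rose and 2 fell, with a median log2 difference of 0.46. The regulator PFKFB3, which raises glycolytic flux, had 6.72, 6.75 and 6.79 in the adherent arrays and 10.54, 10.55 and 10.25 in the sphere arrays, and all sphere arrays were higher. ENO2 went from 4.57 to 8.13 and PGK1 from 8.69 to 10.46, while LDHB (-1.36) and SLC16A3 (-0.43) fell and GAPDH (-0.05) and LDHA (0.07) did not pass. Nuclear-encoded subunits of the respiratory chain moved little, and 7 of 21 measured members rose and 2 fell, with a median log2 difference of 0.11. The largest rise among those was NDUFA10 (0.94), and SDHC (-0.60) and COX5B (-0.34) fell.

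Cell cycle genes were lower in spheres by moderate amounts. Of G2/M and mitosis genes, 0 of 38 measured members rose and 34 fell, with a median log2 difference of -0.85, and of G1/S and replication genes, 3 of 39 measured members rose and 30 fell, with a median log2 difference of -0.95. MKI67, the proliferation antigen, had 11.45, 11.44 and 11.56 in the adherent arrays and 10.61, 10.69 and 10.58 in the sphere arrays (-0.86 ± 0.13, adjusted p = 1.09e-05). Sphere arrays were lower in every case but still among the bright values. CEP55, a protein of the final separation of daughter cells, went from 8.24 to 6.35, the mitotic kinesin KIF11 from 9.42 to 7.78, topoisomerase TOP2A from 10.11 to 8.80 and the replication licensing factor CDC6 from 9.53 to 7.23. The uracil glycosylase UNG (-2.31), the thymidine kinase TK1 (-1.86) and the cyclin CCNE2 (-2.18) fell too. The 3 G1/S members that rose were RFC4 (1.19), GINS3 (0.49) and CCND2 (0.48). Among p53 targets and cell cycle inhibitors, 8 of 26 measured members rose and 9 fell, with a median log2 difference of -0.14. The death receptor FAS had 6.85, 6.93 and 6.85 in the adherent arrays and 3.16, 3.43 and 3.70 in the sphere arrays, and the p53 ligase MDM2 fell from 11.61 to 9.65, while the stress cytokine GDF15 rose from 3.56 to 6.85. The brakes on division BTG1 (1.52) and BTG2 (-2.33) moved in opposite directions.

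Among aryl hydrocarbon receptor genes, 7 of 14 measured members rose and 1 fell, with a median log2 difference of 0.39. CYP1A1, the enzyme most strongly induced by this receptor, had 4.65, 5.33 and 5.32 in the adherent arrays and 9.47, 9.45 and 9.63 in the sphere arrays. The receptor AHR itself went from 9.65 to 11.84, its repressor AHRR from 3.98 to 6.03 and CYP1B1 from 5.15 to 8.74. The hydrolase EPHX1 (-0.98) was the 1 member that fell. NRF2 targets divided evenly (7 rises and 7 falls among 23). The reductase AKR1B1 (2.60) rose, and both subunits of the enzyme that starts glutathione synthesis, GCLC (-0.95) and GCLM (-1.57), fell.

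Selenite, transferrin and putrescine were further additions to sphere medium, and their part was not tested. Of selenoprotein, iron and metal handling genes, 6 of 23 measured members rose and 10 fell, with a median log2 difference of -0.08. The transferrin receptor TFRC had 10.79, 10.76 and 10.92 in the adherent arrays and 9.34, 9.33 and 9.25 in the sphere arrays and was lower in every sphere array. The metallothionein MT2A rose from 8.29 to 11.17, the selenoprotein SELENOM (2.64) and the zinc importer SLC39A8 (1.97) also rose, and the iron exporter SLC40A1 (-1.58) fell. Among polyamine genes, 5 of 16 measured members rose (31.2%) and 4 fell (25%), beside 22.8% and 23.3% of all genes. Their median log2 difference was -0.03. Ornithine decarboxylase (ODC1), which makes putrescine, rose from 9.78 to 10.47. The members that fell were ATP13A3 (-0.94), AZIN1 (-0.84), SMS (-0.81) and SAT1 (-0.70), among them the spermine synthase SMS and the acetyltransferase SAT1.

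Stress genes showed no single direction. Of integrated stress response and ATF4 targets, 15 of 30 measured members rose and 6 fell, with a median log2 difference of 0.29. NUPR1, a small stress-induced nuclear protein, had 6.0, 6.04 and 5.99 in the adherent arrays and 11.78, 11.97 and 11.70 in the sphere arrays. FGF21 (2.73), DDIT4 (2.59) and DDIT3 (1.82) rose, while ATF3 (-2.01) and CHAC1 (-1.88) fell. ATF3 also fell with negative siRNA (-0.77 ± 0.16). It was higher in spheres with mavacoxib (0.87 ± 0.16) and with the labelled COX-2 siRNA (0.92 ± 0.16). Among endoplasmic reticulum chaperones and unfolded protein response genes, 6 of 25 measured members rose and 10 fell, with a median log2 difference of -0.11. The co-chaperone DNAJB9 went from 7.65 to 10.17 and HYOU1 from 9.04 to 10.30, and CREB3L1 (-1.96), CREB3L2 (-1.53) and SDF2L1 (-0.99) fell. Among cytosolic heat shock genes, 4 of 16 measured members rose (25%) and 3 fell (18.8%), near the 22.8% and 23.3% of all genes. Their median log2 difference was -0.02. The small heat shock proteins HSPB1 (7.99 to 11.35) and CRYAB (8.41 to 11.03) and the large ones HSPA2 (8.03 to 11.11) and HSPH1 (8.99 to 10.98) rose. Those that fell were HSPB8 (-0.84), BAG3 (-0.47) and HSF1 (-0.51), and HSPA8 (-0.12) and HSP90AA1 (-0.05) did not pass.

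Of BCL2 family and death receptor genes, 3 of 23 measured members rose and 11 fell, with a median log2 difference of -0.29. BAK1, which opens the mitochondrial membrane, went from 10.92 to 9.18, the survival protein BCL2A1 from 7.30 to 5.24 and the death ligand TNFSF10 from 9.03 to 7.50. The 3 members that rose were CASP14 (3.10), CFLAR (0.96) and CASP4 (0.39). Among drug transporters, 6 of 22 measured members rose and 6 fell (27.3% each), near the 22.8% and 23.3% of all genes. Their median log2 difference was -0.02. The peptide transporter SLC15A2 had 7.38, 7.34 and 7.36 in the adherent arrays and 3.27, 2.88 and 2.95 in the sphere arrays, with the sphere arrays dim throughout, and SLC15A1 fell from 5.60 to 2.78. The conjugate exporter ABCC3 rose from 6.40 to 7.97 and ABCA8 from 6.41 to 8.10. Of mucins, trefoil factors and glandular secretory genes, 4 of 25 measured members rose and 12 fell, with a median log2 difference of -0.50. PSCA, a surface protein of urothelial and prostate cells, had 10.73, 10.90 and 11.03 in the adherent arrays and 5.52, 5.73 and 5.51 in the sphere arrays. TFF1, a trefoil peptide, fell from 8.66 to 3.80, the related surface protein LYPD2 from 10.57 to 4.28 and the mucin MUC20 from 9.36 to 4.18. The members that rose were WFDC2 (3.51), MUC13 (1.16), MUC15 (0.55) and CLCA2 (0.50).

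**Figure D3:**
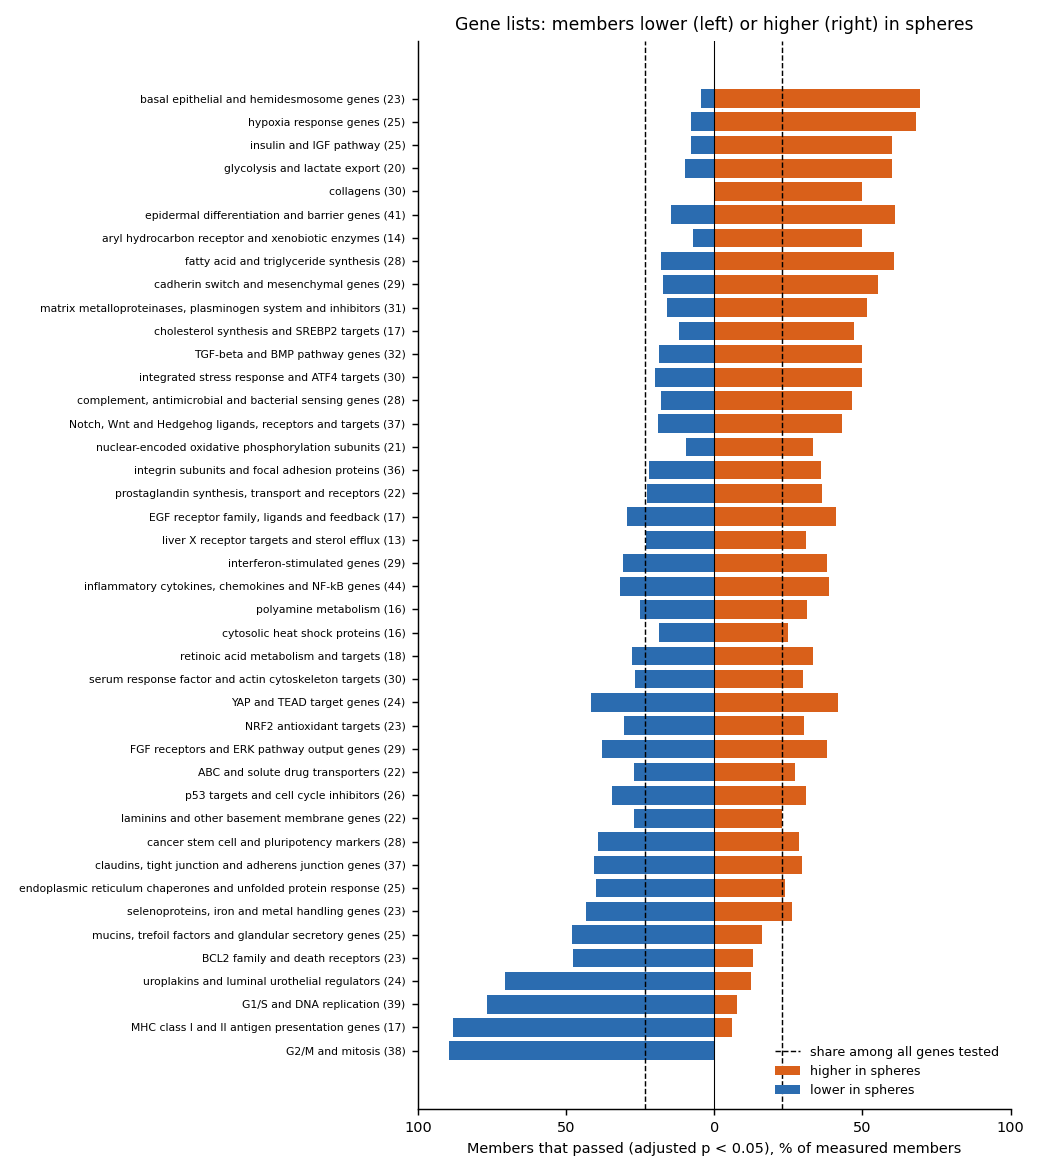
Share of the measured members of each gene list (number in brackets) that fell (blue, to the left) or rose (orange, to the right) in spheres with DMSO at adjusted p under 0.05, in percent, ordered by the balance of both. Dashed lines mark the shares among all 16295 genes, 22.8% higher and 23.3% lower. Basal and hypoxia genes lean furthest to the right, and mitosis, MHC and replication genes furthest to the left.

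Some genes that changed in one direction lay side by side in the gene order, and how many would do so by chance was not tested. With 14154 genes put in the order they have in a gene table of the grey wolf (assembly mCanLup2.hap1), 126 of 13607 windows of 15 neighbours (0.926%) had a median difference over 1 in size, and they joined into 13 stretches. The longest held 59 genes from CYP27B1 to CAPS2 and included MDM2. In it 6 genes rose and 40 fell, with a median of -1.30. The stretch was found by its values. Its counts, and any contrast with other genes, follow at least in part from that choice and only describe it. Of its 43 genes whose mean over both forms was above the median of all values, 38 fell (88.4%), 34 of them at least 2-fold (79.1%), and 3 rose. Of 9414 genes elsewhere with a mean above it, 33.9% fell, 10.9% at least 2-fold, and 28.2% rose. MDM2 had 11.46, 11.79 and 11.59 in the adherent arrays and 9.75, 9.94 and 9.27 in the sphere arrays, and the 3 sphere arrays lay below every adherent array. The growth factor adaptor FRS2 (11.68 to 9.49), the chaperonin subunit CCT2 (11.80 to 9.90), the chromatin reader YEATS4 (9.60 to 7.20), the nuclear pore protein NUP107 (10.58 to 7.81), the kinase TBK1 (9.75 to 7.67) and MDM1 (9.95 to 5.95) fell with it. These genes were chosen after their values were seen. The membrane protein TSPAN8 (11.99 to 8.64), a member of the list with mucins, and LRIG3 of the EGF receptor list fell and lie in the same stretch, and so does LYZ, which rose.

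The stretch had nearly the same median in the other treatments, -1.13 with negative siRNA, -1.19 with mavacoxib and -1.28 with the labelled COX-2 siRNA, in arrays that the DMSO comparison did not use. Another stretch of lower genes ran from LAPTM4B to ZNF706, where 16 of 20 genes fell and 0 rose (median -0.82), and one more from CCDC116 to DKK1, where 10 of 19 fell. The other 10 stretches were of higher genes. The longest of these ran from LPAR4 to KIF4A, where 25 of 36 genes rose and 1 fell (median 1.04), and from SGCE to RUNDC3B, where 24 of 33 rose and 2 fell (median 1.14). The wolf order may differ from that of the dog, and the windows were drawn up after the data were seen.

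**Figure D4:**
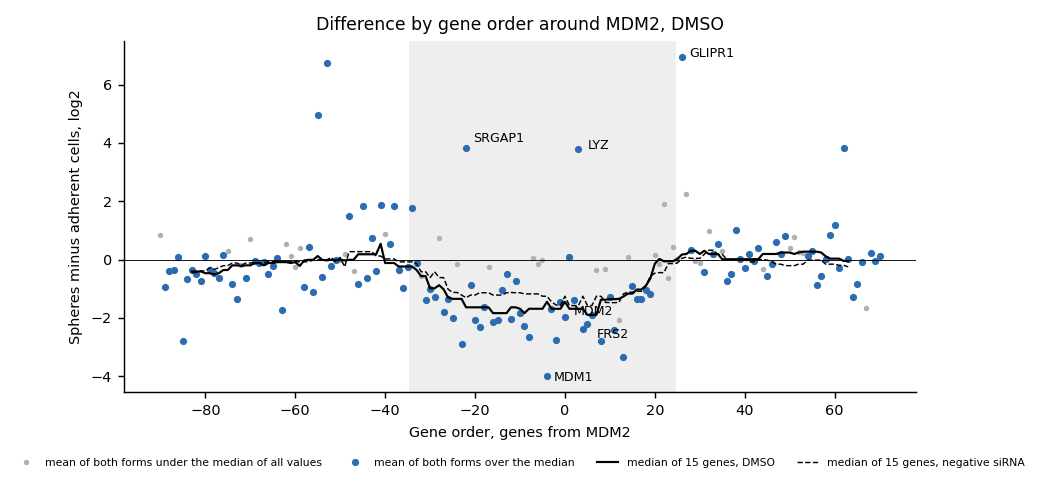
Log2 difference of spheres minus adherent cells with DMSO (y axis) for single genes in their order around MDM2 (x axis, counted in genes). Blue points have a mean over both forms above the median of all values and grey points below it, the solid line is the median of 15 neighbouring genes with DMSO, the dashed line the same with negative siRNA, and the shaded band holds the 59 genes of the stretch. Blue points have a median of -1.64 inside the band, -0.36 to the left of it and 0.07 to the right. The band was picked by these DMSO values.

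The same comparison of culture forms was available in 3 further sets of arrays. With mavacoxib 7633 genes passed (46.8%), with negative siRNA 6955 (42.7%, of which 20.5% higher and 22.1% lower in spheres) and with the labelled COX-2 siRNA 7818 (48%). With mavacoxib, 5741 of the 7505 DMSO genes changed in the same direction (76.5% of the DMSO genes and 75.2% of those with mavacoxib) and 98 in the opposite one. With negative siRNA the same direction was shared by 4979 (66.3% and 71.6%) and the opposite by 257. With the labelled COX-2 siRNA these counts were 5260 (70.1% and 67.3%) and 215. Across genes, which are not independent replicates, the DMSO difference correlated with that under mavacoxib at a Pearson r of 0.922, under negative siRNA at 0.857 and under the labelled COX-2 siRNA at 0.839. Of the 127 genes bright in spheres and dim in adherent cells with DMSO, 92 had that pattern with mavacoxib and 61 with negative siRNA, and of the 72 with the reverse pattern, 62 and 54 did.

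The difference between the culture difference with DMSO and that with negative siRNA was tested, and 2779 genes passed (17.1%). For 1513 (9.29%) the difference in spheres was higher with DMSO and for 1266 (7.77%) it was lower, with 4516 at an unadjusted p under 0.05. These treatments also differed in time, 24 against 48 h, in transfection and possibly in attachment, since spheres for siRNA were plated anchorage-dependent, and these cannot be told apart. The largest such difference was that of the betaine transporter SLC6A12, which rose by 6.60 ± 0.17 with DMSO and by 1.04 ± 0.17 with negative siRNA (difference 5.56 ± 0.25, adjusted p = 1.02e-12). S100A8 and other epidermal genes were among the 8 largest. S100A8 differed by 5.06 ± 0.33, adjusted p = 3.39e-10, and its sphere mean was 9.02 with DMSO and 4.46 with negative siRNA. In that list 23 of 41 members had a higher difference with DMSO and 3 a lower one, and with negative siRNA 18 were higher and 10 lower in spheres, with a median of 0.04. KRT1, KRT10, S100A9, CXCL14, CCL2 and the GTPase RASL11A completed the 8 largest.

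At the other end, EGR1 was lower in spheres by far more with DMSO than with negative siRNA (-0.42 ± 0.17), a difference of -3.43 ± 0.25, adjusted p = 2.06e-09. The mitosis-associated genes PRR11 and PIMREG, the cilium gene CFAP206, the endothelial proteoglycan ESM1, the phosphatase-related membrane protein PLPPR5 and the enamel protein AMTN also had lower values with DMSO, from -3.73 for AMTN to -2.63 for PLPPR5. Most cell cycle genes passed this test. Of 38 mitosis genes 37 had a lower difference with DMSO and 0 a higher one, and with negative siRNA 27 were higher in spheres and 0 lower. Of 39 replication genes the difference was lower for 33 and higher for 1. Of 17 MHC genes, 1 was higher and 1 lower in this test (11.8% in all, beside 17.1% of all genes). Most luminal genes fell with both treatments (17 of 24 with DMSO and 20 with negative siRNA), and most basal genes rose with both (16 and 17 of 23). Some of their members still differed between the treatments, 8 higher and 2 lower of 23 basal genes (43.5%) and 4 higher and 2 lower of 24 luminal genes (25%), with KRT17 at 2.51 and KRT5 at 0.88.

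**Figure D5:**
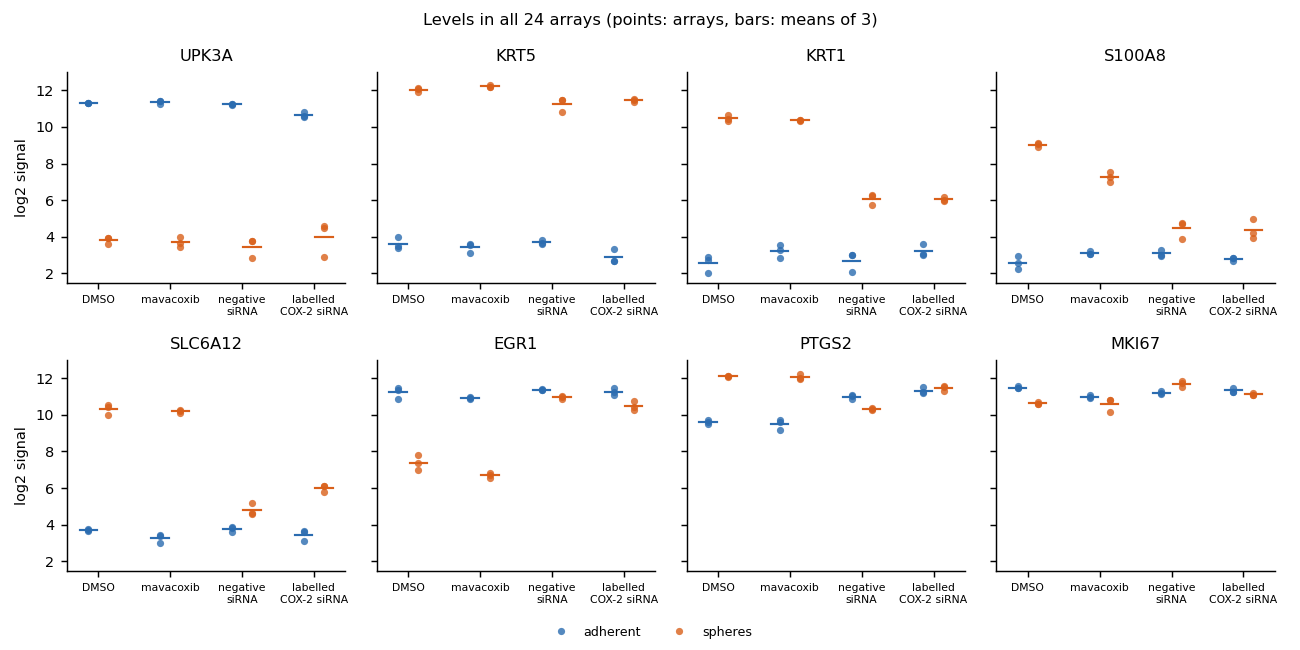
Log2 signal (y axis) of 8 genes in all 24 arrays by treatment (x axis), with adherent arrays in blue, sphere arrays in orange and bars at the means of 3. UPK3A and KRT5 are separated with every treatment, KRT1, S100A8 and SLC6A12 are brighter in spheres with DMSO or mavacoxib than with either siRNA, and PTGS2 and MKI67 change order with negative siRNA.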

How the data were processed

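The deposited values are log2 signals from the authors' series table, 1 per array feature and array, from 0.60 to 13.51. The submitters' processing notes name Affymetrix Expression Console 1.1. How probes were summarised and arrays normalized is not given in the sources used here, and there are no detection calls. Of 27766 features, 16878 carried 1 gene symbol in the platform annotation, 289 had more than 1 symbol and 10599 had none. Where a gene had several features (521 genes), the brightest on average was taken, leaving 16295 genes with no filter. Features of near-identical genes may share signal. Symbols were not updated, and 14154 occur in a gene table of Canis lupus baileyi (mCanLup2.hap1), used for gene order.

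Means of all 8 groups were fitted to 24 arrays in R 4.3.3 with the limma 3.58.1 functions lmFit, contrasts.fit and eBayes, with 16 degrees of freedom from the arrays and 5.54 from the prior. Tests were two-sided and adjusted by Benjamini-Hochberg over all genes. Alternatives tried were arrays quantile-normalized or shifted to one median, 5364 dim genes left out, all features or their mean per gene, a fit to only the arrays compared, a trended robust variance, array weights, a replicate block and each array left out. The fit was also run on simulated data with far fewer changed genes than here, which does not test how it performed on these data. Members and lists were chosen with earlier results of these data known. The rule for named genes picked the 15 largest rises and falls with separate arrays, in each list the 8 with the smallest adjusted p among members that passed, a fixed set of genes, some of which are not reported here, and the 8 largest differences between treatments each way. Of 364 measured genes so picked, the text names 290 and leaves out 74, a choice made with their values known. Some members that did not pass are given as values. Other members that passed, mostly on the smaller side of a list's count, were named after their values were seen. Features with no symbol or several were left out, and the microRNA MIR1838, which the rule picks, is not described.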

Additional observations from a re-analysis of the deposited data

Results flagged for a closer look

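Genes are listed here because the difference between spheres and adherent cells was itself different with DMSO and with negative siRNA, by a test of that difference in the limma fit. Of 386 genes named, 191 passed it at an adjusted p under 0.05. The 48 given here either differed by at least 4-fold or passed with opposite directions in both treatments, and their adjusted p was at most 0.000103. This limit was set after the number that passed was known, to keep the list short. Values are the difference with DMSO minus the difference with negative siRNA on the log2 scale. The arrays with DMSO and with negative siRNA also differed in time, transfection and seeding, and their part was not tested.

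Epidermal and barrier genes had larger rises with DMSO, namely S100A8 (5.06), KRT1 (4.52), S100A9 (4.47), KRT10 (4.44), ABCA12 (3.79), IVL (3.78) and SBSN (2.95), and the basal keratin KRT17 (2.51) did too. Secreted and signalling genes with a larger difference were the chemokines CXCL14 (5.07), CCL2 (4.64) and CCL7 (3.24), the hormone STC1 (3.62), the proteases ADAMTS5 (2.29) and MMP1 (2.09), DLL1 (2.61), IGFBP5 (2.48) and the calcium-binding protein S100A4 (2.46). Metabolic genes in the same direction were SLC6A12 (5.56), CYP1A1 (4.40), FABP4 (3.18), PFKFB3 (2.72), DDIT4 (2.48), ANGPTL4 (2.13) and AKR1B1 (2.11), and interferon-stimulated ones were IFI6 (4.02) and RSAD2 (2.56). For CLDN4 (2.09), PTGES (2.57) and TSPAN8 (2.49) the fall was smaller with DMSO than with negative siRNA. Lower values with DMSO were found for the immediate early genes EGR1 (-3.43) and FOS (-2.30), the cell cycle genes PRR11 (-2.83), PIMREG (-2.73), CCNE2 (-2.10) and CEP55 (-2.03), and AMTN (-3.73), CFAP206 (-3.23), ESM1 (-2.68), PLPPR5 (-2.63), IDO1 (-2.07), AXL (-2.0) and CDH2 (-2.07).

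The 8 genes that passed in opposite directions were RASL11A (4.96), PTGS2 (3.19), MUC13 (2.44) and ODC1 (0.96), which rose in spheres with DMSO and fell with negative siRNA, and MKI67 (-1.34) and TOP2A (-1.59), which did the reverse, together with PIMREG and CFAP206 above.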

How the results depend on the processing

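The counts of genes in the 5 tests stayed within 1.5 times their main value under every alternative run, with 1 exception: array weights gave 5642 genes in place of 2779 for the difference between DMSO and negative siRNA, 3370 higher and 2272 lower. With DMSO, array weights gave 10355 genes in place of 7505, and leaving out single arrays gave 6839 to 7302. Shifting all arrays to one median moved the median difference of all genes from -0.03 to -0.14, and 3215 genes then rose and 4663 fell. Of 386 genes named, 350 kept their call and direction under all alternatives and none that passed changed sign. The other 36 had small differences. GATA3, TGM1, SCD and RARG passed under some (GATA3 at -0.46 with arrays shifted to one median), and MMP15, MUC15, PTGER1, PTGR1, CASP4 and TLR2 were lost under some. Of 1316 counts of list members, 47 moved by more than 1.5 times, nearly all from counts under 10. Among them, respiratory chain rises went from 7 to 4 with arrays shifted to one median, and EGF family falls from 5 to 8 with array weights. Windows of 25 neighbouring genes, chosen after the data were seen, gave 5 stretches in place of 13, and the longest again held MDM2. Whether equal replicate numbers mark paired arrays is not stated. Deviations from the group means of equal number correlated at -0.102, 0.105 and -0.054 with DMSO, and those of unequal number at -0.147 to 0.158. With negative siRNA they were 0.164, 0.037 and 0.266 for equal and -0.245 to 0.112 for unequal numbers. With 3 arrays a group such correlations cannot decide whether arrays were paired. A replicate block gave 7497 genes with DMSO and 2745 for the difference, and changed no call of a named gene. The dim signals of many genes limit how well their differences are known.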
